A study of Drosophila melanogaster with 20 samples.

Results

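Of 20 arrays of Drosophila eye imaginal discs, 9 carried transcripts of the ring gland gene spookier (spok) at a high level and 11 did not, and the 9 arrays were compared with the 11. The arrays were selected on spok itself: log2 of the intensity of the brightest spok probe set was 8 or above in the 9 arrays, called spok-high here, and below 8 in the 11, called spok-low. These classes are a measured property of the dissected samples and are no groups of the study. The values of spok are therefore given as a description without a test, and a difference in another gene describes how that gene varied together with spok.

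The discs came from wandering larvae of the third instar kept at 25 °C, and how many discs made up a sample is not given in the sources used here. All larvae carried GMR-GAL4, a driver for the differentiating cells of the developing retina, and the labels list it for the non-transgenic larvae too. Larvae of lines WT-6 and WT-24 expressed wild-type human proinsulin, those of lines Mut-1 and Mut-101 expressed C96Y proinsulin, a misfolding form, and each transgenic larva was hemizygous for its transgene. Each of the 5 lines was sampled in both sexes with 2 arrays per line and sex, which the labels call biological replicates.

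The ring gland is the compound endocrine organ of fly larvae. It lies in front of the brain and outside the eye disc, and it holds the prothoracic gland, the corpus allatum and the corpora cardiaca. The prothoracic gland makes ecdysone from dietary sterols in a chain of oxidations by the enzymes of the Halloween genes, among them spok, and pulses of this steroid drive moulting and metamorphosis. The corpus allatum makes juvenile hormone, and the corpora cardiaca release adipokinetic hormone, which mobilises stored fuel.

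The highest spok intensity was that of WT-24 male replicate 2, with 6407 units. Non-transgenic male replicate 1 followed with 5165, WT-24 female replicate 2 with 4385, WT-6 female replicate 1 with 3485 and non-transgenic female replicate 1 with 2538. Mut-101 male replicates 2 and 1 had 2354 and 1646, and non-transgenic male replicate 2 had 1392. The array just inside the threshold was WT-24 male replicate 1, with 498 units (log2 8.96), and the array just outside was Mut-1 female replicate 2, with 149 units (log2 7.22). The other 10 spok-low arrays lay between 19.4 and 70.8 units. No array fell between log2 7.22 and 8.96.

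The classes were spread unevenly over the labels. Of the 4 arrays of each line, 3 were spok-high in the non-transgenic line, 3 in WT-24, 2 in Mut-101, 1 in WT-6 and 0 in Mut-1. By sex, 6 of 10 male arrays and 3 of 10 female arrays were spok-high. Wild-type proinsulin arrays were divided into 4 and 4, whereas C96Y arrays held 2 spok-high and 6 spok-low. In Mut-101 both males were spok-high and both females spok-low, so that class and sex cannot be told apart within that line. Among males each line lay wholly in 1 class. Only 3 of the 10 line and sex groups held both classes, the females of the non-transgenic line, WT-24 and WT-6, and these 3 pairs compare arrays of the same label.

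**Figure D1:**
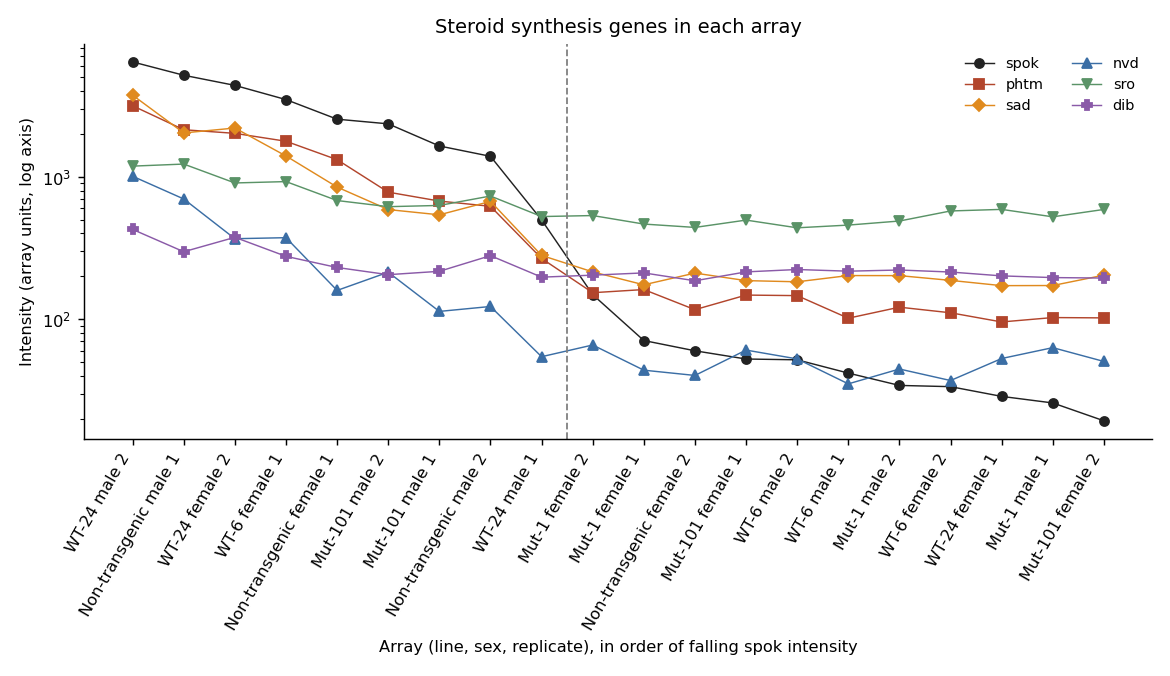
Intensity (log axis) of spok and of 5 other genes of ecdysone synthesis in each of the 20 arrays, ordered by falling spok intensity, with 1 point per array and a dashed line at the division between the 9 spok-high and 11 spok-low arrays. phtm, sad and nvd fall with spok over the high arrays and are flat over the low ones (phtm 267 to 3153 against 95.7 to 162), and dib moves least (197 to 427 against 186 to 223).

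The other genes of ecdysone synthesis followed spok in part. Their products act in the order nvd, then sro with spok and its paralogue spo, then phtm, dib and sad, each altering the sterol skeleton in turn. The gene phantom (phtm), a cytochrome P450 hydroxylase, ranged from 267 to 3153 units in the spok-high arrays (median 1319) and from 95.7 to 162 in the spok-low arrays (median 117). Every spok-high array lay above every spok-low array. In a limma fit over 10261 probe sets with line and sex as covariates, phtm was higher by 3.54 ± 0.454 (SE) on the log2 scale, or 11.6-fold (adjusted p = 0.00752). The files give no detection call, so the low values may hold background, and a fold is one of intensities as deposited. phtm was the only probe set called, which is 0.00975% of those tested, and none was called lower. Probe sets dim over all arrays were not tested, and phtm, with a spok-low median of 117 units, passed only through the spok-high arrays. Its p is therefore a description, here and in the fits and lists below. With no filter on dim probe sets the limma adjusted p of phtm was 0.0135. In bulk tissue, more ring gland cells and more RNA per cell cannot be told apart.

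The gene shadow (sad), another P450 hydroxylase, ranged from 281 to 3742 units in the spok-high arrays (median 847) and from 172 to 215 in the spok-low arrays (median 187). Its groups did not overlap either. The fitted difference was 2.48 ± 0.474 on the log2 scale, 5.59-fold, and did not pass the adjusted threshold (limma adjusted p = 0.197). The label of the arrays as carrying ring gland transcripts rests on spok and sad, so sad gives it no separate support. The lowest sad value of the 9 arrays, 281 units, was that of WT-24 male replicate 1. In that array nvd (54.5 units) and dib (197) lay within the spok-low range, whereas phtm (267) lay above it. The third gene without overlap was curled (cu), which encodes the fly homologue of the deadenylase family protein Nocturnin, with 819 to 4697 units (median 1538) against 440 to 692 (median 564). In all, 3 of 10261 probe sets, or 0.0292%, lay higher in every spok-high array than in any spok-low array, and 0 lay lower.

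The remaining enzymes differed less or were too dim to be tested. neverland (nvd), whose product opens the pathway by desaturating cholesterol, ranged from 54.5 to 1008 units (median 214) against 35.2 to 65.9 (median 50.5). It was above every spok-low array in 8 of 9 spok-high arrays. shroud (sro), a short-chain dehydrogenase gene, had 526 to 1229 units (median 733) against 438 to 590 (median 497), and its difference of 0.66 ± 0.190 was not called (limma adjusted p = 0.443). disembodied (dib), a P450 hydroxylase gene, had 197 to 427 units (median 276) against 186 to 223 (median 211), with a difference of 0.37 ± 0.154 (limma adjusted p = 0.480). The probe set of spook (spo), the paralogue of spok, carries the Affymetrix suffix for probes that can match several transcripts, and it lay at 1346 to 1578 units against 1298 to 1706. Cyp6t3, assigned to the same pathway, had 93.3 to 126 units against 110 to 155. shade (shd), which converts ecdysone to its active form in the tissues that receive it, had a median of 162 units in both classes.

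Genes that feed sterol to the pathway had smaller differences, and none of them was called. Start1, which encodes a sterol transfer domain protein, ranged from 1394 to 3226 units (median 1624) against 1096 to 1489 (median 1188), a difference of 0.60 ± 0.151 (limma adjusted p = 0.419). Npc1a, which encodes a protein needed to move sterol out of endosomes, had 3753 to 5254 units (median 4048) against 3031 to 4016 (median 3624), and a difference of 0.27 ± 0.0763. For the electron carriers Fdx1 and Fdx2 the log2 differences were both 0.06, for the sterol binding protein gene Npc2a 0.02 and for ecd -0.10. Of the 14 listed genes of prothoracic steroid synthesis other than spok, 13 had a probe set and 11 were bright enough to be tested. Among these, 1 was called higher (phtm) and 0 lower, and 6 lay higher at an unadjusted p under 0.05, where the background was 5.64% of all probe sets higher and 3.63% lower. The median difference over the 11 was 0.27, beside 0.0027 over all probe sets tested. The dimmest probe set tested had a geometric mean of 158 units, and phtm, with a spok-low median of 117, passed this filter only through the spok-high arrays, so these counts describe the genes that passed and support nothing beyond them.

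**Figure D2:**
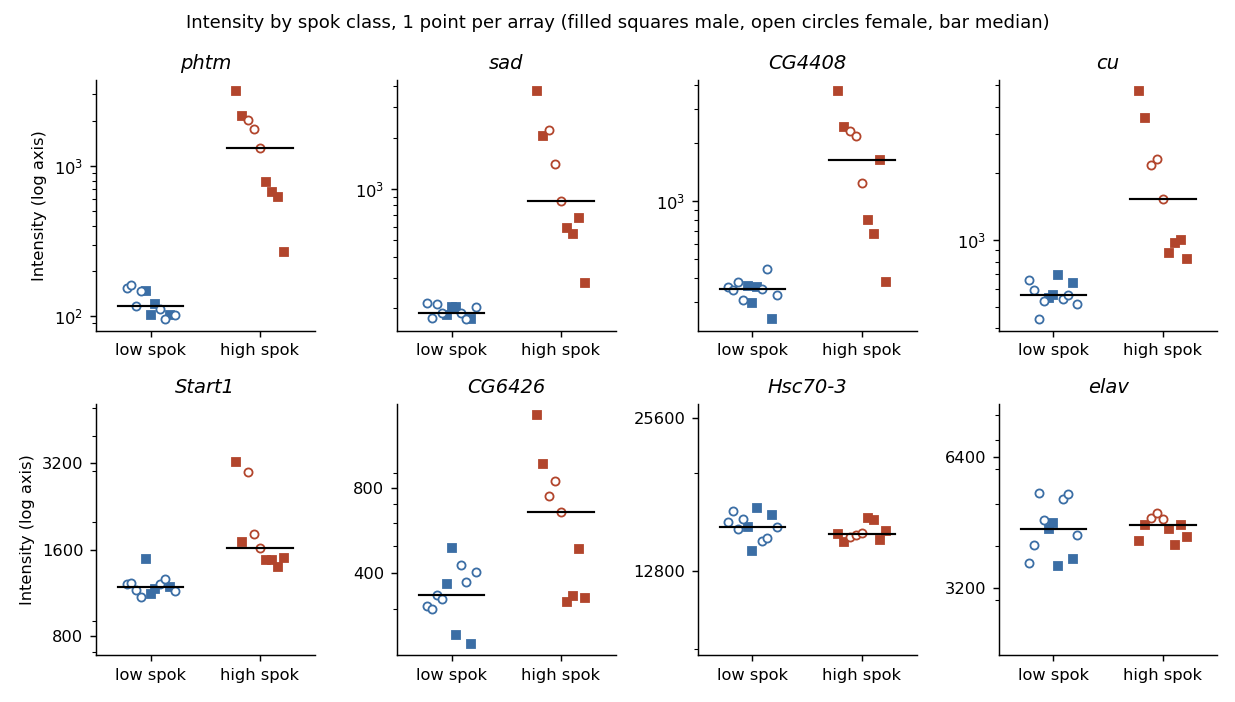
Intensity (log axis) of 8 genes by class, 1 point per array, with males as filled squares, females as open circles and the class median as a bar. phtm, sad and cu do not overlap between classes, CG4408 overlaps by 1 array, and Start1 and CG6426 overlap by more (Start1 1394 to 3226 against 1096 to 1489). The ER chaperone gene Hsc70-3 and the neuronal gene elav have similar medians (15129 against 15632 and 4455 against 4377), though elav is lower in the spok-high array of each female pair.

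Regulators of the gland were mostly dim. ouija board (ouib), a zinc finger factor gene known for its action on spok, had 139 to 528 units (median 201) against 107 to 161 (median 134), a difference of 0.81 ± 0.243 (limma adjusted p = 0.443). ventral veins lacking (vvl), a POU factor gene that the gland needs for its steroid enzymes, had 119 to 820 units (median 378) against 103 to 339 (median 226), a difference of 0.92 ± 0.402 (limma adjusted p = 0.501). torso (tor), the receptor gene for the brain hormone that triggers ecdysone release, ranged from 74.0 to 148 units against 61.3 to 90.9 and was not tested. In the list of regulators and receptors 6 of 15 genes were tested, 0 were called and the median difference was 0.27. At an unadjusted p under 0.05, 2 lay higher and 0 lower, where the background was 5.64% of all probe sets higher and 3.63% lower. ouib, with a spok-low median of 134 units, passed the filter on dim probe sets only through the spok-high arrays, so its p and these counts are a description. GstE14, known as noppera-bo, encodes a glutathione transferase required for ecdysone synthesis and was chosen after its values were seen. It ranged from 87.0 to 1043 units (median 348) against 71.5 to 99.99 (median 83.5), and 8 of 9 spok-high arrays lay above all spok-low arrays. With no filter on dim probe sets, the limma fit gave 2.21 ± 0.455 for GstE14 (adjusted p = 0.383) and 2.43 ± 0.577 for nvd (adjusted p = 0.543).

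The 3 female pairs compared arrays of the same line and sex. spok, which chose the arrays, stood at 2538 against 60.01 units in the non-transgenic line, 4385 against 28.7 in WT-24 and 3485 against 33.6 in WT-6. phtm differed by 11.3-fold, 21.1-fold and 16.0-fold in the same order of lines, and sad by 4.02-fold, 12.8-fold and 7.47-fold. For cu the pairs gave 3.50-fold, 3.85-fold and 4.26-fold, and for CG4408, annotated as a carboxypeptidase gene, 3.26-fold, 5.17-fold and 6.21-fold. CG6426 differed by 1.95-fold, 2.0-fold and 1.98-fold.

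Within these 6 arrays 4 probe sets were called, or 0.0390% of those tested, all of them higher. They were phtm (log2 3.97 ± 0.173, limma adjusted p = 0.00293), cu (1.95 ± 0.0776, adjusted p = 0.00293), CG4408 (2.24 ± 0.174, adjusted p = 0.0422) and CG6426 (0.98 ± 0.0763, adjusted p = 0.0422). sad was not among them (2.86 ± 0.292, limma adjusted p = 0.116). These calls rest on the spread within the 6 arrays. Another fit took the spread from all 20 arrays, with a term for each line and sex group. It gave the same differences, and none of the 4 genes was called. The limma adjusted p was then 0.221 for phtm, 0.290 for cu and CG4408 and 0.419 for CG6426. This fit of 6 arrays kept 2 residual degrees of freedom, and leaving out either array of the WT-6 pair left 0 calls, while leaving out either array of the non-transgenic pair gave 15. With the replicate number as a block 18 probe sets were called, 8 higher and 10 lower, among them the same 4, and with each array centred on its median 77 were, 64 higher and 13 lower.

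The amount of spok was also entered in place of the class. With log2 spok as a continuous covariate over all 20 arrays, 5 probe sets were called (0.0487%), all with a positive slope. phtm rose by 0.58 ± 0.0372 on the log2 scale for each unit of log2 spok (limma adjusted p = 4.18e-07), sad by 0.42 ± 0.0492 (adjusted p = 0.00102) and CG4408 by 0.35 ± 0.0442 (adjusted p = 0.00221). cu rose by 0.29 ± 0.0413 (adjusted p = 0.00846) and Start1 by 0.11 ± 0.0175 (adjusted p = 0.0301). The covariate is the value that divided the arrays, and the class means lay 5.81 apart in log2 spok. The slopes therefore largely restate the division, and their p-values are a description that adds no separate support.

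**Figure D3:**
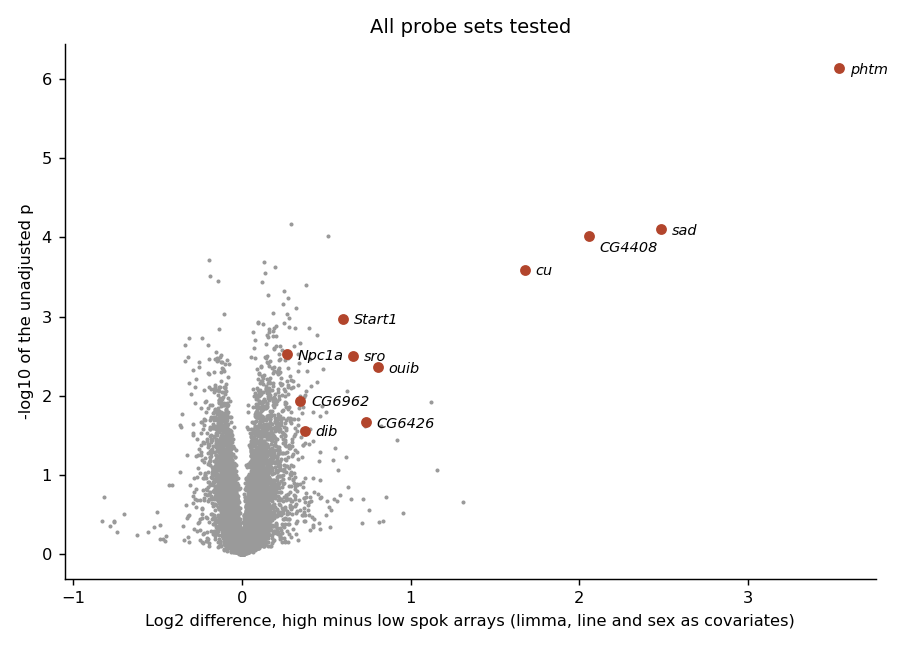
Log2 difference of spok-high minus spok-low arrays (x axis) and -log10 of the unadjusted limma p (y axis) for the 10261 probe sets tested, spok left out. The named genes are sad, dib, Npc1a and the 8 genes most like sad. phtm stands alone at 3.54, followed by sad (2.48), CG4408 (2.06) and cu (1.68), and most probe sets lie within 0.5 of 0.

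The 8 genes whose log2 values were most like those of sad over the 20 arrays, after line and sex means were removed, were CG4408 (Pearson r = 0.973), cu (0.972), phtm (0.971), CG6962 (0.938), Start1 (0.934), sro (0.909), ouib (0.905) and CG6426 (0.894). The likeness was computed on the same arrays that were divided by spok, in which all genes share the RNA of a sample, and it is given as a description with n = 20. Over the 9 spok-high arrays alone r lay between 0.825 (Start1) and 0.978 (CG6962). Over the 11 spok-low arrays it lay between -0.41 (ouib) and 0.31 (CG6962), so the likeness to sad was carried by the arrays with spok. Of the 8, phtm, sro, Start1 and ouib are known gland genes, and CG4408, cu, CG6962 and CG6426 were on none of the lists.

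CG4408 ranged from 381 to 3697 units in the spok-high arrays (median 1631) and from 245 to 445 in the spok-low arrays (median 350). The only spok-high array that lay within the spok-low range was WT-24 male replicate 1, the array with the least spok among the 9. The difference of CG4408 over all arrays was 2.06 ± 0.40 (limma adjusted p = 0.197), and that of cu was 1.68 ± 0.360 (adjusted p = 0.285). CG6962 had 992 to 1908 units (median 1437) against 1073 to 1241 (median 1101), and CG6426 had 316 to 1435 units (median 656) against 226 to 492 (median 336). Only 5 probe sets differed by more than 2-fold at an unadjusted p under 0.05, namely phtm, sad, CG4408, cu and 1 probe set with no single gene name (log2 1.12). Over all 10261 probe sets, 951 had an unadjusted p under 0.05, 579 higher and 372 lower.

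The count of 1 depended on which arrays entered, while the size of the phtm difference did not. When each array was left out in turn, the phtm difference lay between 3.42 and 3.64 on the log2 scale. phtm was called in 17 of these 20 fits and not without non-transgenic female replicate 2 (limma adjusted p = 0.0652), WT-24 female replicate 1 (0.0734) or WT-6 female replicate 1 (0.395). Without WT-6 male replicate 2 the count was 100 (90 higher, 10 lower), without WT-24 male replicate 1 it was 3, and without WT-24 male replicate 2 or WT-24 female replicate 2 it was 2. sad was called without WT-24 male replicate 1 (limma adjusted p = 0.00325), WT-24 male replicate 2 (0.0488) or WT-6 male replicate 2 (0.0373), and CG4408 without the first and the last of these.

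Genes of the other parts of the ring gland were high in some spok-high arrays only. jhamt, the gene of the methyltransferase that completes juvenile hormone, was at 1220 units in non-transgenic male replicate 1, 1228 in WT-6 female replicate 1 and 639 in non-transgenic female replicate 1. In the other 17 arrays it was between 17.4 and 47.8 units, including WT-24 male replicate 2, which had the most spok and only 26.8 units of jhamt. Cyp6g2, a P450 gene of the corpus allatum list, stood at 494, 409 and 220 units in those 3 arrays, and at 62.0 or less elsewhere. Ldsdh1, a short-chain dehydrogenase gene, stood at 555, 637 and 391 units, and at 116 or less elsewhere. jhamt, Cyp6g2 and Ldsdh1 were too dim over all arrays to be tested and were chosen after their values were seen. In the female pairs jhamt stood at 639 against 19.1 units in the non-transgenic line, 1228 against 34.0 in WT-6 and 23.0 against 20.3 in WT-24, and all of these but 639 and 1228 lay within the range of the 17 arrays.

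The earlier, mevalonate steps of juvenile hormone synthesis serve many tissues and did not differ in the same way. The log2 differences were 0.13 for Mvd, 0.07 for Hmgs, -0.03 for Fpps and -0.08 for Kr-h1, which encodes a factor induced by the hormone. In the list of the corpus allatum, 9 of 14 genes were tested, 0 were called (0 also at an unadjusted p under 0.05) and the median was -0.01. Akh, the adipokinetic hormone gene of the corpora cardiaca, was at 2594 units in non-transgenic male replicate 1, 761 in WT-24 male replicate 2 and 403 in Mut-101 male replicate 1, and between 141 and 294 elsewhere. Its spok-high arrays therefore overlapped the spok-low ones (148 to 282), and its difference was 0.46 ± 0.533 (limma adjusted p = 0.848). Of the other genes of that list, the log2 differences were 0.13 for Gbeta5, 0.09 for the prohormone protease gene amon and -0.01 for Lst, and 0 of the 4 tested genes were called (0 at an unadjusted p under 0.05).

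**Figure D4:**
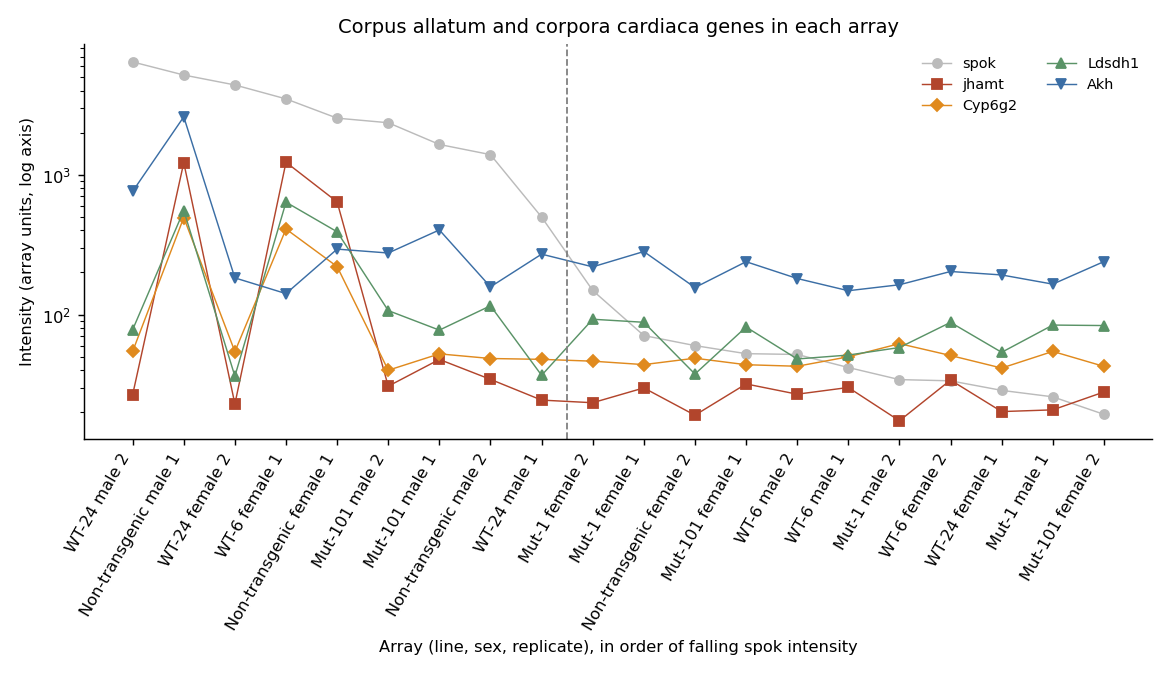
Intensity (log axis) of jhamt, Cyp6g2 and Ldsdh1 and of Akh in each of the 20 arrays in the order of falling spok intensity, with spok in grey and a dashed line between the classes. jhamt, Cyp6g2 and Ldsdh1 are high together in 3 of the 9 spok-high arrays and in 0 of the 11 spok-low arrays, and Akh is highest in non-transgenic male replicate 1 (2594 units).

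Markers of other tissues near the eye disc were set beside the classes, and 0 members of these lists were called. Among muscle genes 8 of 10 tested lay above zero and the median difference was 0.36, with 0 at an unadjusted p under 0.05. Their summed intensity ranged from 7042 to 16351 units in the spok-high arrays (median 12020) and from 5526 to 14751 in the spok-low arrays (median 7363). The muscle myosin light chain gene Mlc1, with 497 to 2449 units against 292 to 1774, differed by 0.51 ± 0.434 (limma adjusted p = 0.767). In the female pairs the muscle median was 0.65, with 1 gene higher and 1 lower at an unadjusted p under 0.05, where the background of that fit was 8.65% of all probe sets higher and 5.48% lower. The summed ranges overlapped widely, and the part of muscle in the results above was not tested.

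Fat body markers had a median difference of -0.22 over 8 tested genes, 0 of them at an unadjusted p under 0.05. Their sum was 14524 to 49742 units in the spok-high arrays and 15234 to 36969 in the spok-low arrays, and 1 array of each class stood far above the rest, non-transgenic male replicate 2 and WT-24 female replicate 1. In the female pairs, at the same line and sex, the fat body median was -0.75, and 3 of the 8 genes lay lower and 0 higher at an unadjusted p under 0.05. The background of that fit was 8.65% of all probe sets higher and 5.48% lower. Fbp2 was lower in the spok-high array of all 3 pairs, at 188 against 650 units in the non-transgenic line, 541 against 7069 in WT-24 and 404 against 2060 in WT-6 (log2 -2.62 ± 0.338, limma adjusted p = 0.141). The part of fat body in the within-pair calls was not tested. The storage protein gene Lsp2 reached 12077 units in non-transgenic male replicate 2 and 7750 in WT-24 female replicate 1, and Fbp2 8878 and 7069. Without these 2 arrays, a choice made once their values were known, the phtm difference was 3.48 on the log2 scale and was not called (limma adjusted p = 0.0781).

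Salivary gland genes had a median difference of 0.23 over 8 tested genes in the fit of all arrays, with 0.72 for Sgs3, 0.50 for Sgs5 and 0.46 for Sgs4, which encode glue proteins. In the female pairs the median had the opposite sign, -0.34, with 4 of the 8 lower and 0 higher at an unadjusted p under 0.05, and 0 were called. The background of that fit was 8.65% of all probe sets higher and 5.48% lower. The part of salivary gland in the results was not tested.

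For the other neighbouring tissues the median log2 difference was 0.09 over 7 tracheal genes, 0.07 over 15 genes of haemocytes and the lymph gland, and 0.0049 over 9 genes of the dorsal vessel and pericardial cells, the tissues next to the ring gland. It was 0.03 over 7 neuroblast genes, -0.02 over 10 neuronal genes, -0.02 over 7 neuropeptide and secretory granule genes, -0.01 over 8 glial genes and -0.02 over 7 genes of the antennal disc. At an unadjusted p under 0.05 the tracheal genes obst-A (0.19 ± 0.0526) and verm (0.19 ± 0.0678) and the dorsal vessel gene tup (0.16 ± 0.0670) lay higher, and the glial gene loco (-0.06 ± 0.0268) and the antennal disc gene danr (-0.07 ± 0.0307) lay lower. The background in this fit of all arrays was 5.64% of all probe sets higher and 3.63% lower. elav, the pan-neuronal RNA binding protein gene, was at 4013 to 4751 units in the spok-high and 3583 to 5304 in the spok-low arrays, so its level overlapped between the classes. In each female pair elav was lower in the spok-high array (log2 -0.17 ± 0.0355, limma adjusted p = 0.202). Over the 10 neuronal genes the pairs gave a median of -0.12, with 0 higher and 2 lower at an unadjusted p under 0.05. The background of that fit was 8.65% of all probe sets higher and 5.48% lower.

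The genes of the eye disc itself were close in both classes. Of 24 tested genes of eye specification and differentiation 0 were called, 1 lay higher and 2 lay lower at an unadjusted p under 0.05, and the median was -0.04. The background was 5.64% of all probe sets higher and 3.63% lower. The retinal determination genes ey and toy, both Pax6 genes, differed by -0.12 ± 0.0552 and -0.07 ± 0.0315, and the homeobox gene B-H2 by 0.16 ± 0.0533. dac, another determination gene, lay at 8158 to 9427 units against 7761 to 9478. In the list of cuticle and peripodial genes 0 of 7 tested were called, with a median of -0.03. Edg78E, a cuticle protein gene responsive to ecdysone, differed by -0.20 ± 0.0623 and lay lower at an unadjusted p under 0.05.

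Genes that respond to ecdysone in its target tissues were compared next. Of 21 tested, 0 were called, 1 lay higher (MsrA, 0.19 ± 0.0665) and 1 lower (Edg78E) at an unadjusted p under 0.05, and the median was -0.04. The background in this fit of all arrays was 5.64% of all probe sets higher and 3.63% lower. The receptor gene EcR lay at 2492 to 3168 units against 2122 to 2981 (0.14 ± 0.0752), and Eip63E, a cyclin-dependent kinase gene, differed by 0.13 ± 0.0666. Cyp18a1, whose product inactivates the hormone, had 130 to 417 units against 66.5 to 338 and a difference of 0.45 ± 0.318. The lowest difference of the list was that of the nuclear receptor gene Hr3, chosen after its value was seen, at -0.52 ± 0.671. In the female pairs 4 of the 21 genes lay higher and 7 lower at an unadjusted p under 0.05, with a median of -0.09, and 0 were called. The background of that fit was 8.65% of all probe sets higher and 5.48% lower.

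In the lists of general machinery that steroid cells share with others, the only call was phtm, itself a gene of ecdysone synthesis. The list of smooth ER and microsomal enzymes includes the P450 genes of ecdysone synthesis. Of its 7 tested genes 1 was called higher, phtm, beside 0.00975% of all probe sets tested. Cyt-b5, the cytochrome b5 electron donor gene, differed by 0.14 ± 0.0398 (limma adjusted p = 0.443). In the list of sterol uptake 0 of 9 were called, with a median of 0.07, and the lipoprotein receptor gene LpR1 differed by 0.11 ± 0.0640. The medians were 0.02 over 8 genes of mitochondrial electron donors and haem synthesis, 0.03 over 9 genes of lipid droplets and fatty acid synthesis and -0.02 over 14 genes of the cell cycle and DNA replication, with 0 called in each. ER chaperones and folding enzymes, which handle newly made secretory proteins, had a median of -0.03 over 15 tested genes, 0 of them called, with 1 lower at an unadjusted p under 0.05 (Uggt, a folding sensor gene, -0.11 ± 0.0423). The background in this fit of all arrays was 5.64% of all probe sets higher and 3.63% lower. In the female pairs the median of the ER chaperone list was -0.06, with 0 higher and 4 lower at an unadjusted p under 0.05. The background of that fit was 8.65% of all probe sets higher and 5.48% lower. Hsc70-3, which encodes the ER chaperone BiP, was at 14622 to 16291 units (median 15129) against 14041 to 17048 (median 15632), a difference of 0.0083 ± 0.0249 (limma adjusted p = 0.956).

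The class was then entered into the comparison that the study was built for, C96Y minus wild-type proinsulin, since 2 of 8 C96Y arrays and 4 of 8 wild-type arrays were spok-high. Without the class 2116 probe sets were called, 20.6% of those tested (1201 higher, 915 lower). With the class as a covariate 1831 were called, or 17.8% (1072 higher, 759 lower). With each array centred on its median this count was 601 (310 higher, 291 lower). The 1751 probe sets called in both fits were 82.8% of the former and 95.6% of the latter, and all of them kept their sign. The median size of the shift in the C96Y difference over all probe sets was 0.0129 on the log2 scale.

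The difference of phtm between C96Y and wild type was -0.95 ± 0.803 without the class and -0.07 ± 0.397 with it, that of sad was -0.99 ± 0.631 and -0.37 ± 0.414, and that of CG4408 was -0.96 ± 0.527 and -0.44 ± 0.350. None of the 3 was called in either fit. CG6426 was called without the class (-0.87 ± 0.277, limma adjusted p = 0.0336) and not with it (-0.69 ± 0.252, adjusted p = 0.0711). It had the largest shift among named genes called in either fit. Of the genes with the next largest shifts, chosen after their values were seen, scro went from -0.73 to -0.83 and stayed called, as did CG17109, from 1.09 to 1.22. NimC1, a phagocytosis receptor gene of haemocytes, went from -1.14 to -1.05 and stayed called. Among the further genes with large shifts, l(2)34Fc, CG13024 and chas also stayed called. CG18540 and CG15212 were called only without the class, and CG30033, Cyp6a23 and CG12003 only with it. Over all probe sets 365 calls were lost with the class and 80 were gained.

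Whether the difference between the classes was alike in both sexes was tested with an interaction term, and 0 probe sets were called by limma (312 at an unadjusted p under 0.05). For phtm the male minus female difference of the effect was -0.53 on the log2 scale and for sad -0.47 (limma adjusted p = 1.00 for each). The 2 sexes drew on different lines here, since spok-high and spok-low males never shared a line. The principal components of all tested probe sets held 19.8%, 15.6% and 12.1% of the variance, and arrays of 1 line and sex correlated at 0.978 to 0.993. On the component with 15.6%, Mut-101 male replicate 2 stood apart at -30.2, with all other arrays between -10.7 and 13.0. Array means lay between 1194 and 1250 units and medians between 213 and 286, the highest median being that of Mut-101 male replicate 2, a spok-high array.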

How the data were processed

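RNA was hybridised to 20 Affymetrix arrays. The authors deposited 1 linear intensity per probe set and array, and the submitters' processing notes name MAS5, with no version or settings. Of 18952 probe sets 183 controls were left out. Genes were named from the platform annotation, 13647 probe sets with 1 gene, 402 with several and 4720 with none, and 13544 of the single-gene probe sets matched RefSeq identifiers. Symbols follow that annotation, in which phantom is phtm. The brightest probe set stood for each gene, and the upper 60% of 17104 by mean were tested, spok excluded, in R 4.3.3 with limma 3.58.1, which was given log2 intensities, line and sex as covariates, a variance trend and Benjamini-Hochberg adjustment over 10261 probe sets. The fit had 13 residual and 3.16 prior degrees of freedom. A call is an adjusted p under 0.05, two-sided. P-values measure the spread between arrays, whose number limits the precision.

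The arrays and gene lists were chosen with earlier results of these data known. Genes named are the steroid synthesis list, up to 4 members of each other list by smallest p, the calls, the 8 genes most like sad and Hsc70-3. Alternatives changed the filter, scaling, pseudocount, covariates, blocks, trend, weights, probe set choice and arrays. The code was tested on simulated data. The files give no detection calls, and the transgene was not analysed here.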

Additional observations from a re-analysis of the deposited data

Results flagged for a closer look

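Among the spok-high arrays, 9 of the genes examined, some of them named only here, had 1 array set far apart from the other 8 by Dixon's criterion. Chance alone sets apart about 1 in 20 groups. The number of genes put to this criterion is not given here, and whether 9 exceeds that rate was not tested. The 9 genes are therefore listed as a description only. For the gland regulator gene ouib, WT-24 male replicate 2, the array with the most spok, had 528 units and the next array 271. Non-transgenic male replicate 2 stood at an end of the range for 4 genes, with Fbp2 at 8878 units (next 967), Lst at 604 (next 440), verm at 2267 (next 2704) and CycB3 at 3698 (next 4047). Non-transgenic male replicate 1 was the highest for dac, at 9427 units (next 8691), and the lowest for Cpr49Ac, at 1707 units (next 3418). WT-24 male replicate 1 had the lowest Sr-CI value, 684 units (next 1360), and Mut-101 male replicate 1 the highest CycB value, 5387 units (next 5115).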

How the results depend on the processing

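The count of 1 probe set called between spok-high and spok-low arrays was 0 with 1 mean per line and sex, with the number in the sample descriptions as a block, with the upper 40% of probe sets, without the line Mut-1, Mut-101, Non-transgenic or WT-6, and without the 2 arrays highest in fat body markers. It was 3 without WT-24 and 3 without the spok-high array with the least spok, an alternative also chosen after seeing the data, 4 with no covariates, 5 in females alone and 5 with continuous spok. Leaving out 1 array gave 0 to 100 calls. It was 1 under the replicate block and the other alternatives, and males alone could not be fitted. Within the 3 female pairs 4 became 18 with the replicate block (8 higher, 10 lower), 77 with median centring and 0 to 15 without 1 array. The C96Y count of 1831 became 601 with median centring (310 higher, 291 lower, 591 shared), 1740 with the replicate block and 1453 to 1983 without 1 array. The sex difference gave 0 to 1. Deviations of arrays with the same replicate number correlated at -0.47 to 0.30 (median -0.02) over 45 pairs of groups, 14 of them over 0.1. With 2 arrays per group, these values cannot decide whether the numbers mark samples handled together. Of 3956 gene values under alternatives, 3925 kept their side of the threshold, 21 passed it newly and 10, all of phtm, no longer passed. In 91 the sign changed with no call on either side, and no called value changed sign. The cause was not tested.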
